A study of Mus musculus with 4 samples.

Results

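Tumour-initiating stem-like cells, a cultured population isolated from liver tumours of C57BL/6 mice, received 2 compounds together, ATRA (all-trans retinoic acid) and SAHA (vorinostat, a hydroxamic acid inhibitor of histone deacetylases), and their RNA was compared with that of cells given vehicle. The combination culture received ATRA at 5 µg/ml and SAHA at 0.5 µg/ml for 16 hours. Cultures given either compound alone at the same dose and time were sequenced beside it, and the sources used here give no time for the vehicle culture. All 4 cultures grew in DMEM/F12 with fetal bovine serum, mouse EGF, nucleosides and dexamethasone, so every library carries those agents too. Each group is 1 library of ribosome-depleted total RNA from 1 culture, and the labels name no second isolate, so no difference below has a replicate check, an error or a p-value. Expression was deposited as FPKM (fragments per mapped library size and per kilobase of transcript) for 23359 gene rows. A row was counted when its mean over the 4 libraries was at least 1 FPKM, which kept 8616 rows and left out 14743. For each counted row the difference is the log2 ratio of FPKM + 1 in the combination library to FPKM + 1 in the vehicle library, and a gene past a log2 difference of 1 in either direction, 2-fold on that scale, is described as higher or lower. A fold given in words divides one FPKM value by the other, without the added 1. Where 4 FPKM values stand in a row, their order is vehicle, ATRA, SAHA, combination.

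ATRA is the vitamin A metabolite that binds retinoic acid receptors, which pair with retinoid X receptors on DNA and switch from repression to activation when the ligand is bound. SAHA blocks the zinc-dependent histone deacetylases, so that acetyl groups accumulate on histones and on many other proteins, and transcription shifts in both directions within hours. Cells that accumulate unfolded proteins in the endoplasmic reticulum (ER) raise chaperones such as BiP (encoded by Hspa5) through the sensors ATF6, IRE1 and PERK. Persistent PERK signalling raises ATF4 and then CHOP (encoded by Ddit3), a transcription factor associated with cell death.

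The libraries were of similar size on the deposited scale. Column totals ran from 258214 to 309001 FPKM, and 1 FPKM on a transcript of 1 kb stood for an estimated 93.4 to 99.8 fragments. Small RNAs took 27.0% of the vehicle total and 33.8% of the combination total, and the single row Gm20594 took 18.03% and 10.3%. The SAHA library stood apart: Gm20594 took 33.9% of its total and its 10 highest rows 59.5%, against 46.4% to 47.2% in the other libraries. Its median over the counted rows was 2.87 FPKM, against 3.28 to 3.34, and the part of this in its low values was not tested. The cells showed almost none of the defining genes of liver parenchyma: 1 of 35 hepatocyte markers was counted (Fah), albumin (Alb) stood at 0.0108 FPKM with vehicle and 0.0162 with the combination, and Hnf4a at 0.0186 and 0.00871. The hepatocyte list summed to 7.66 and 4.22 FPKM, the macrophage list to 3.53 and 4.63, and the lymphocyte list to 0.143 and 0.137. Mesenchymal markers had the intermediate filament gene Vim at 562 FPKM with vehicle and 362 with the combination. The cholangiocyte list summed to 340.2 FPKM with vehicle and 436 with the combination, but 3 of its 12 genes were counted and nearly all of the sum was Spp1, a secreted phosphoprotein that other cells make too (336 and 433 FPKM).

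In the combination library the ER chaperone Hspa5, the stress factor Ddit3 and many proteasome, mitochondrial ribosome and N-glycosylation genes stood above vehicle. Interferon-stimulated genes, most counted S100 and annexin genes, a number of matrix genes, the cell-surface Ly6 family and most targets of ATF4 in amino acid supply stood below it. Of the 8616 counted rows, 954 (11.1%) were higher and 1089 (12.6%) lower, and 6573 lay between the marks. The count of every list below is to be read against these 11.1% and 12.6%, and against the shares at its level given in the next paragraph. The median difference was 0.04 on the log2 scale, and the middle 90% ran from -1.61 to 1.38. Past 4-fold the balance tipped downwards, with 119 higher and 239 lower, and past 8-fold there were 26 and 54. Fv1, a retroviral restriction gene, lay just inside the upper mark at 1.0006 and Ints4 just outside it at 0.9996, while Sos2 (-1.0004) and Hipk1 (-0.99898) lay on either side of the lower mark. At the filter, Kdm6a was the last row kept, and Zbtb1 was the first left out.

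The share past the mark depended on level. Among the 2361 rows with a mean of 1 to 2 FPKM, 5.12% were higher and 10.97% lower. Among the 2254 rows with 5 to 20 FPKM, 17.4% were higher and 14.8% lower, and among the 488 rows with 20 to 100 FPKM, 19.5% and 12.9%. Adding 1 FPKM before taking the log pulls low genes towards 0, so counts of low genes are understated on this scale.

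**Figure D1:**
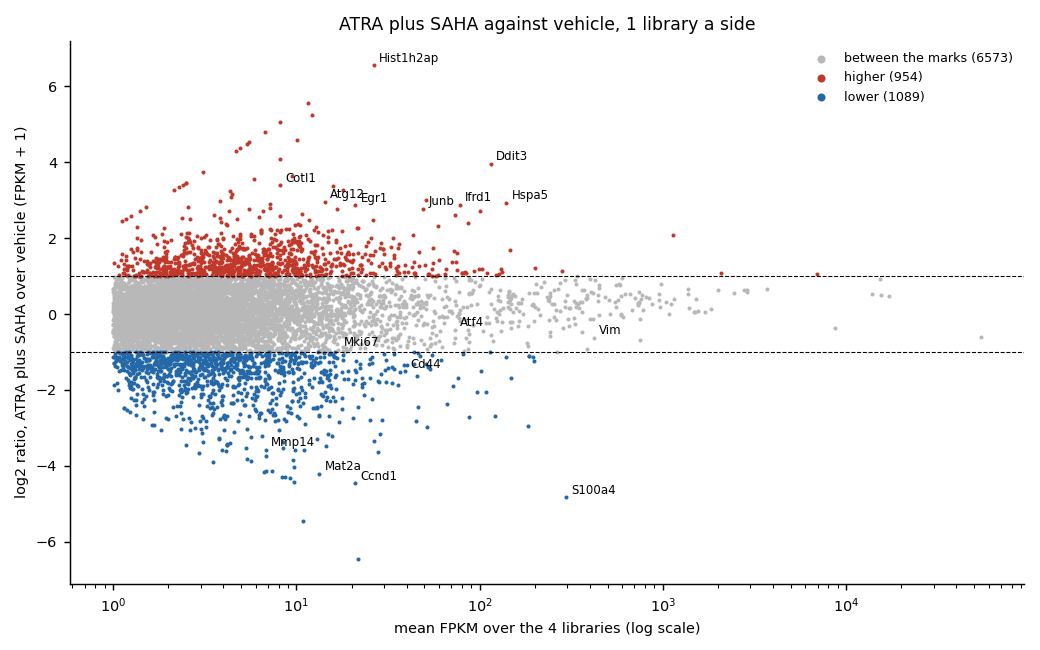
Each point is 1 of 8616 counted rows: the x axis is its mean FPKM over the 4 libraries on a log scale, and the y axis its log2 ratio of FPKM + 1, ATRA plus SAHA over vehicle, with dashed lines at the 2-fold marks. Ddit3 (3.96) and Hspa5 (2.94) stand far above genes of like level, and S100a4 (-4.84) is the lowest of the genes above 100 FPKM.

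Ddit3 and Hspa5 were the stress genes with the highest level under both compounds. Ddit3 (chr10:127290793-127311786 on mm10) stood at 25.4 FPKM in the vehicle library, 8.34 under ATRA, 15.6 under SAHA and 411 under both. Only the combination library was high: both compounds alone lay below vehicle. The deposited Ddit3 locus also spans Mars, the methionyl-tRNA synthetase gene, which stood at 8.56 FPKM with vehicle and 2.91 with the combination. Hspa5 (chr2:34772090-34776529), the ER chaperone BiP that holds the stress sensors inactive, stood at 47.1 FPKM in the vehicle library, 63.6 under ATRA, 81.03 under SAHA and 367 under both. Each compound alone was above vehicle and the combination exceeded both by a wide margin, 7.79 times vehicle.

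The sensors themselves moved little. Of 8 counted sensor and co-sensor genes, 1 was higher and 0 lower, with a median of 0.21. Eif2ak3, which encodes PERK, stood at 0.922 FPKM in the vehicle library, 1.49 under ATRA, 1.71 under SAHA and 2.01 under both. That is a log2 difference of 0.65, short of the mark, in a gene too low for the ratio to be taken at face value. Atf6 was level (11.8 against 11.8 FPKM), and Ern1, which encodes IRE1, was -0.53 on the log2 scale. The 1 gene past the mark was Wfs1, an ER membrane protein that restrains ATF6, at 2.37 FPKM in the vehicle library, 4.39 under ATRA, 12.1 under SAHA and 12.1 under both. The SAHA and combination libraries were alike for Wfs1, and ATRA alone lay between them and vehicle.

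Among the chaperones and folding enzymes of the ER, 9 of the 37 counted genes were past the mark upwards and 3 downwards, against 11.1% and 12.6% of all counted rows. The median was 0.05, so the list as a whole did not shift, and its upper tail carried the difference. Creld2, an ER-resident protein released under stress, had 1.84, 2.49, 7.47 and 10.9 FPKM, and Sdf2l1, a partner of BiP, had 3.77, 5.26, 7.33 and 16.3 FPKM. Hyou1, the nucleotide exchange factor of BiP, had 4.98, 7.73, 17.6 and 20.3 FPKM. In these 3 genes the order was vehicle, ATRA, SAHA, combination. Calr, a lectin chaperone, had 27.3, 37.4, 101 and 74.5 FPKM and was highest with SAHA alone. The 3 lower members work on collagen or on oxidation: Serpinh1, the collagen chaperone, had 80.3, 85.7, 4.25 and 10.6 FPKM, Fkbp10, a collagen prolyl isomerase, had 11.3, 11.9, 1.24 and 2.61 FPKM, and Ero1l, the oxidase that recharges protein disulfide isomerase, had 17.3, 19.2, 7.63 and 6.63 FPKM. All 3 were already low with SAHA alone and were near vehicle with ATRA.

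The ER stress response element, CCAAT and CCACG separated by 9 bases, is the classic site of ATF6 in chaperone promoters. Windows from 250 bases before to 50 bases after the annotated start were read from RefSeq (build GRCm38.p6, the same coordinates as mm10) and searched on both strands. The element was present in 35 of 27025 promoters (0.130%), in 9 of the 6755 counted protein-coding genes with a window (0.133%) and in 8 of the 30 ER chaperone genes with one. The 9 genes had a median log2 difference of 1.10 with the combination, 0.32 with ATRA and 0.77 with SAHA. With the combination 5 were higher and 0 lower, beside 11.1% and 12.6% of all counted rows. As 8 of the 9 belong to the ER chaperone list, this partly repeats its count. The windows of those 5 genes and of 2 that stayed between the marks are shown 5′ to 3′ on the gene's strand, with the element in capitals. In Calr, Creld2 and Ero1lb it lies on the opposite strand, so the capitals begin with CGTGG.
Hspa5: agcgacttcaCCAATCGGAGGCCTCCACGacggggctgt
Creld2: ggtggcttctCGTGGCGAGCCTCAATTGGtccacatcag
Calr: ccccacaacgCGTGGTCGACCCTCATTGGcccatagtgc
Pdia6: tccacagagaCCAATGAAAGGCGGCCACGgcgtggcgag
Ero1lb: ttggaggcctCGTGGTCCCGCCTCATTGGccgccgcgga
Hsp90b1: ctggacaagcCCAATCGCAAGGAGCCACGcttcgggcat
Canx: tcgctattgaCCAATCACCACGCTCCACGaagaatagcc

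The Hspa5 window is chr2:34772015-34772053 (plus strand), and its element spans bases 65 to 47 before the start. The others are chr15:88819510-88819548 (plus strand) for Creld2, chr8:84847065-84847103 (minus strand) for Calr, chr12:17266481-17266519 (plus strand) for Pdia6, chr13:12565672-12565710 (plus strand) for Ero1lb, chr10:86705628-86705666 (minus strand) for Hsp90b1 and chr11:50325790-50325828 (minus strand) for Canx. The difference ranged widely among the genes with the element. Hspa5 was 2.94 and Creld2 2.07 on the log2 scale. The chaperone Hsp90b1 was 0.40 (39.1 against 51.8 FPKM, vehicle against combination) and the lectin chaperone Canx 0.05 (37.6 against 39.1 FPKM). Dnajc3 and Syvn1, whose windows are not shown, were -0.33 and 0.49, so Dnajc3 lay below vehicle. Ero1lb, an oxidase of the secretory pathway, was past the upper mark from a low level (0.447 against 2.11 FPKM). Hsp90b1, Canx, Ero1lb, Dnajc3 and Syvn1 are named for their promoters, after their values were seen.

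**Figure D2:**
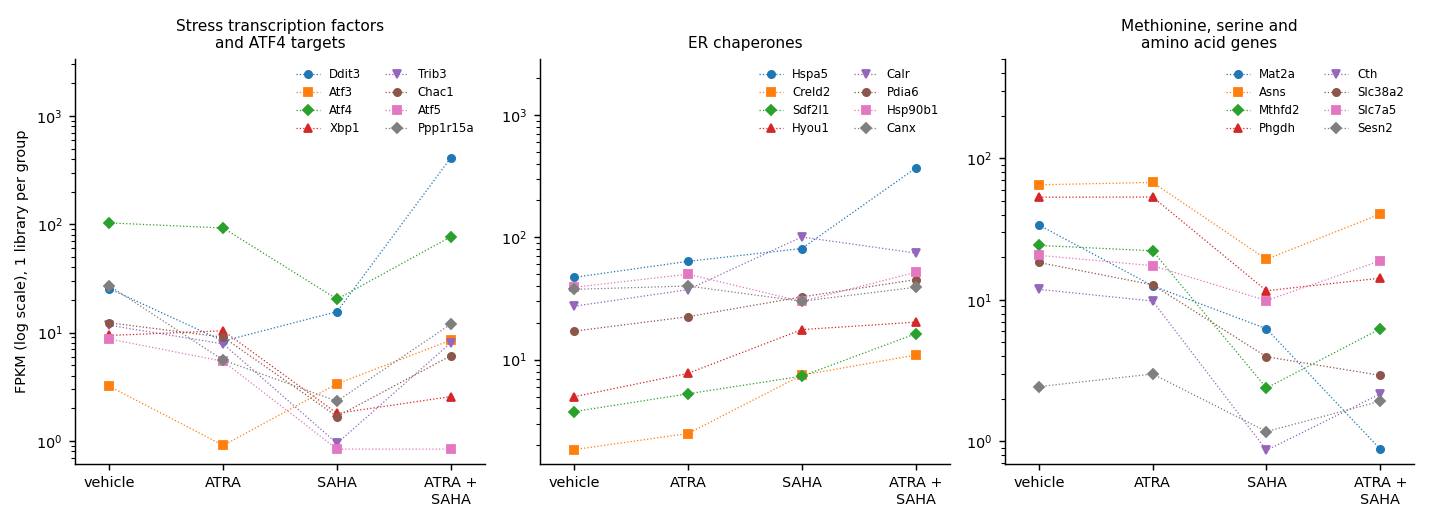
FPKM on a log scale (y axis) in the 4 libraries (x axis), 1 point per gene and library, with dotted lines only to guide the eye. Ddit3 reaches 411 FPKM and Hspa5 367 with the combination, Xbp1 and Atf5 are low wherever SAHA was given, and Mat2a is lowest with the combination (0.8798). Chac1, Asns, Hsp90b1 and Canx were added after their values were seen.

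Xbp1, the transcription factor that IRE1 activates by splicing its RNA, stood at 9.398 FPKM in the vehicle library, 10.4 under ATRA, 1.79 under SAHA and 2.56 under both. It was low in both libraries with SAHA, and splicing cannot be read from gene-level values. In its target list 8 of the 28 counted genes were past the mark upwards and 1 downwards, beside 11.1% and 12.6% of all rows, with a median of 0.21. Sec11c, a signal peptidase subunit, had 3.13, 2.55, 9.31 and 13.9 FPKM, and Pdia6, a disulfide isomerase, had 17.1, 22.4, 32.6 and 45.1 FPKM. Edem3, a mannosidase that marks misfolded glycoproteins for disposal, had 2.52, 2.398, 11.3 and 8.72 FPKM. Xbp1 itself was the 1 member of the list past the lower mark, and Dnajb9, a co-chaperone of BiP, had 1.49, 1.68, 0.786 and 0.445 FPKM.

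Transport and glycosylation of ER proteins leaned the same way. In ER-to-Golgi transport 8 of the 42 counted genes were past the mark upwards and 1 downwards, with a median of 0.40, led by the COPII coat gene Sec13 (9.95 against 31.7 FPKM, vehicle against combination) and the vesicle SNARE gene Sec22b (2.77 against 8.44 FPKM). The list had a median level of 6.25 FPKM with vehicle. Of all rows with 5 to 20 FPKM, 17.4% were higher and the median difference was 0.10, so its count was near the share at its level. In N-glycosylation 6 of the 33 counted genes were past the mark upwards and 0 downwards, with a median of 0.41. Dad1, a subunit of oligosaccharyltransferase, had 8.09, 14.4, 43.6 and 35.5 FPKM. Gmppb, which makes GDP-mannose, had 0.647, 0.959, 4.08 and 3.95 FPKM. In ER-associated degradation the share was nearer to that of all rows, with 4 of 31 higher and 1 lower. Sel1l, the scaffold of the HRD1 ligase, was 1.17 on the log2 scale.

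The ATF4 arm did not follow Ddit3. Atf4 itself stood at 103 FPKM in the vehicle library, 92.3 under ATRA, 20.3 under SAHA and 76.6 under both, so SAHA alone was the low library and the combination was close to vehicle. In the PERK, ATF4 and CHOP list 2 of the 17 counted genes were past the mark upwards and 5 downwards, with a median of -0.89 against -0.33 for ATRA and -1.24 for SAHA. The 2 higher members were Ddit3 and Atf3, a stress-induced repressor, at 3.19 FPKM in the vehicle library, 0.905 under ATRA, 3.36 under SAHA and 8.49 under both. Trib3, a pseudokinase induced by ATF4 and CHOP, had 11.7, 7.84, 0.946 and 8.03 FPKM, so it was low with SAHA alone and between SAHA and vehicle with the combination. Ppp1r15a (GADD34), the phosphatase subunit that reverses the translation block, had 27.02, 5.56, 2.32 and 11.96 FPKM. It was highest with vehicle and low under each treatment, a different order from Ddit3, with which it is usually induced. Nupr1, a stress-induced chromatin protein, had 58.5, 86.5, 2.14 and 28.5 FPKM.

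Of 32 counted genes of the ATF4 amino acid response, 0 were higher and 17 lower, against 12.6% of all rows. The median was -1.14, beside -0.11 for ATRA and -1.69 for SAHA. These 3 medians share the vehicle library and are given side by side only. Atf5, a sister factor of ATF4, had 8.71, 5.42, 0.838 and 0.838 FPKM. Slc38a2, a carrier of small neutral amino acids, had 18.4, 12.8, 3.96 and 2.92 FPKM, and Cth, which makes cysteine from cystathionine, had 11.9, 9.801, 0.864 and 2.16 FPKM. These genes were near vehicle with ATRA and low in both libraries that received SAHA. The members nearest to vehicle with the combination were the amino acid carriers Slc1a4 (10.9 against 11.1 FPKM, vehicle against combination) and Slc7a5 (20.6 against 18.9 FPKM).

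ATF4 and its partners bind a composite element whose common core is TTGCATCA. This core was found in 251 of 27025 RefSeq promoter windows (0.929%), in 47 of the 6755 counted genes with a window (0.696%) and in 5 of the 27 ATF4 response genes with one. Of the 47 genes, 5 (10.6%) were higher and 14 (29.8%) lower, beside 11.1% and 12.6% of all counted rows. Their median difference was -0.36 with the combination and -0.54 with SAHA, and with the combination the genes without the core had 0.05. The 47 include those 5 ATF4 response genes. The windows below are shown because the genes that carry the core split: Atf3 was above the upper mark (1.18), Nupr1 (-1.01) and the cystine carrier Slc7a11 (-1.53) were below the lower one, and the glutathione-degrading enzyme gene Chac1 lay between (-0.90). Capitals mark the core, which is on the opposite strand in Slc7a11.
Atf3: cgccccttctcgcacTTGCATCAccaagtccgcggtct
Nupr1: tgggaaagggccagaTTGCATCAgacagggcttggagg
Slc7a11: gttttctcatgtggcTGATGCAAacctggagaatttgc
Chac1: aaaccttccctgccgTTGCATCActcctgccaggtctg

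These windows are chr1:191183421-191183458 (minus strand) for Atf3, chr7:126625558-126625595 (minus strand) for Nupr1, chr3:50443657-50443694 (minus strand) for Slc7a11 and chr2:119351034-119351071 (plus strand) for Chac1. Chac1 was named for its promoter after its value was seen, and it had 12.3, 9.05, 1.68 and 6.11 FPKM.

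Mat2a had the lowest log2 difference in the amino acid lists. It encodes the catalytic subunit of the enzyme that makes S-adenosylmethionine, the methyl donor of the cell, and stood at 33.8 FPKM in the vehicle library, 12.6 under ATRA, 6.24 under SAHA and 0.8798 under both (chr6:72432799-72440615). The 4 libraries descend in that order, and the combination was 38.4 times lower than vehicle. The methionine and polyamine list, Mat2a included, had 2 of 23 higher and 4 lower and a median of 0.02. Spermine synthase (Sms) had 6.75, 5.78, 1.96 and 1.71 FPKM, and Adi1, an enzyme of methionine salvage, had 4.42, 3.88, 1.57 and 1.07 FPKM. Oaz1, the antizyme that sends ornithine decarboxylase to the proteasome, had 34.8, 48.8, 96.5 and 111 FPKM and was on the other side. Its row overlaps a pseudogene row, so reads may be shared.

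Serine and one-carbon genes were lower or level and none was past the upper mark, with 6 of 17 lower. Phgdh, the first enzyme of serine synthesis, stood at 53.1 FPKM in the vehicle library, 53.3 under ATRA, 11.6 under SAHA and 14.2 under both. The mitochondrial folate enzymes Mthfd2 and Mthfd1l had 24.2, 22.2, 2.38 and 6.23 FPKM and 8.83, 10.5, 0.779 and 0.864 FPKM. The 2 libraries with SAHA were low and close to each other for Phgdh and Mthfd1l, and for Mthfd2 the combination lay above SAHA alone. Amino acid carriers followed, with 0 higher and 5 lower of 13. The filter left out 11 of 24 carriers, and their median of -0.91 was -0.09 over all members. Of the cytosolic tRNA synthetases 3 were higher and 4 lower of 23, near the shares of all rows: the lysyl enzyme gene Kars stood at 19.3 FPKM with vehicle and 46.6 with the combination, and the leucyl enzyme gene Lars at 19.2 and 6.59.

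Outside the ER, proteasome genes were shifted evenly upwards, and their list had the highest median among lists with at least 5 counted genes. Of 41 counted proteasome genes, 14 were higher and 1 lower, against 11.1% and 12.6% of all rows, and 39 of 41 lay above 0, with a median of 0.66 beside 0.17 for ATRA and 0.47 for SAHA. Psmd4, the ubiquitin receptor of the regulatory particle, stood at 13.99 FPKM in the vehicle library, 17.1 under ATRA, 44.99 under SAHA and 58.96 under both. Psmb3 and Psmb6, subunits of the catalytic core, had 13.2, 16.5, 34.9 and 51.3 FPKM and 17.5, 20.9, 40.7 and 65.9 FPKM. In these 3 genes ATRA was slightly above vehicle, SAHA higher and the combination highest. The 1 lower member was Psme1, an interferon-inducible activator subunit, with 13.8, 11.5, 5.88 and 5.68 FPKM.

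In the list of heat shock proteins and cytosolic chaperones 3 of the 38 counted genes were past the mark upwards and 5 downwards. These shares were near the 11.1% and 12.6% of all rows, and the median was 0.22. Its lowest member (-2.81) was Serpinh1, the collagen chaperone that works in the ER and is also counted among the ER chaperones above. Stip1, which passes clients from HSP70 to HSP90, had 15.7, 19.5, 40.4 and 56.1 FPKM, while Hspb8 and its partner Bag3, the pair that directs clients to autophagy, had 10.6, 11.1, 3.53 and 2.78 FPKM and 6.03, 5.2005, 2.67 and 1.89 FPKM. Hspa1a and Hspa1b, the inducible HSP70 copies, share nearly all their sequence and cannot be separated here. They were listed at 2.12 against 4.8997 FPKM and 3.58 against 7.05 FPKM. The chaperonin CCT and prefoldin were mostly above 0, in 11 of 13 genes, with a median of 0.57 and none past a mark.

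In autophagy 5 of the 28 counted genes were past the mark upwards and 0 downwards, beside 11.1% and 12.6% of all rows, with a median of 0.48. Atg12, the ubiquitin-like protein that is joined to ATG5, stood at 3.68 FPKM in the vehicle library, 3.58 under ATRA, 14.4 under SAHA and 35.4 under both. Atg4b, the protease that processes LC3, had 2.31, 2.59, 6.11 and 9.79 FPKM, and Map1lc3b, which encodes LC3B, had 21.9, 25.1, 54.8 and 55.3 FPKM. Map1lc3b was alike in both libraries with SAHA, whereas Atg12 and Atg4b were highest with the combination. Lysosome genes were 8 higher and 3 lower of 43, against the same shares. That list had a median level of 5.18 FPKM with vehicle. Of all rows with 5 to 20 FPKM 17.4% were higher, so its higher count was near the share at its level. Subunits of the proton pump such as Atp6v0d1 (3.803 against 14.8 FPKM) were on the upper side, and the tetraspanin Cd63 (17.9 against 2.86 FPKM) and the hydrolase Gusb (2.57 against 0.405 FPKM) on the lower.

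Genes of the NRF2 antioxidant response split with 7 higher and 6 lower of 33. Nfe2l2, which encodes NRF2, was lower at 23.8 FPKM in the vehicle library, 23.2 under ATRA, 9.44 under SAHA and 8.54 under both. Gsta4, a glutathione transferase for lipid aldehydes, had 1.05, 3.68, 16.4 and 11.3 FPKM, and Blvrb, a biliverdin reductase, had 6.83, 16.1, 25.6 and 37.04 FPKM. Gpx1, the cytosolic glutathione peroxidase, had 58.9, 36.8, 11.9 and 16.4 FPKM, and the cystine carrier Slc7a11 had 12.8, 17.8, 3.68 and 3.802 FPKM.

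Retinoid targets that were high under ATRA alone were near vehicle under both compounds. Dhrs3, a retinaldehyde reductase and a standard direct target of retinoic acid receptors, stood at 0.07803 FPKM in the vehicle library, 15.5 under ATRA, 0.119 under SAHA and 0.153 under both. Only the ATRA library was high, and the combination was within 0.1 FPKM of vehicle. Tgm2, a transglutaminase induced by retinoids, had 3.98, 14.7, 3.0005 and 4.45 FPKM and was likewise highest with ATRA and near vehicle with the combination. Rarg, the receptor gene with the highest level, had 8.76, 14.2, 2.004 and 2.97 FPKM, above vehicle with ATRA and below it wherever SAHA was given. Rara and Rxra were -0.34 and -0.58 on the log2 scale, and Rarb did not reach the filter (0.747, 1.11, 0.344 and 0.367 FPKM). Crabp1, a cytoplasmic retinoic acid binding protein, had 85.4, 70.5, 21.9 and 31.9 FPKM. Cyp26b1, which degrades retinoic acid, stayed under the filter with 0.0265, 0.377, 0.0657 and 0.0839 FPKM. Of 7 counted retinoid targets, 1 was higher (Egr1, which is also an immediate early gene) and 2 lower, with a median of -0.05 beside 0.64 for ATRA and -0.05 for SAHA. The tandem retinoid element with a spacer of 5 bases was in 2 of 27025 promoter windows and in 0 of those counted, so no window is shown.

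On the deacetylase side, Hdac3 and Hdac6 were higher and Hdac7 lower among the 7 counted HDAC genes. Hdac6, the cytoplasmic tubulin deacetylase, stood at 1.21 FPKM in the vehicle library, 1.64 under ATRA, 4.53 under SAHA and 4.11 under both. Hdac7, a class IIa enzyme, stood at 3.31 FPKM in the vehicle library, 3.45 under ATRA, 0.394 under SAHA and 0.349 under both, and its row overlaps Slc48a1. Hdac3, the enzyme of the NCoR corepressor complex, had 4.81, 5.21, 10.7 and 10.95 FPKM. Hdac1, Hdac2, Hdac4 and Hdac5 were 0.59, -0.17, 0.45 and 0.20 on the log2 scale. Hdac8 to Hdac11 were under the filter. Sirt7, a nucleolar NAD-dependent deacetylase, had 0.801, 1.01, 6.49 and 8.29 FPKM.

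Genes that HDAC inhibitors usually induce were 5 higher and 2 lower of 24. H1f0, the linker histone of resting cells, stood at 30.2 FPKM in the vehicle library, 26.4 under ATRA, 126 under SAHA and 164 under both. Ckb, brain-type creatine kinase, had 7.73, 32.9, 93.3 and 68.7 FPKM, and Rhob, a growth-restraining GTPase, had 17.2, 15.9, 114 and 90.5 FPKM. For these 3 genes both libraries with SAHA were high, and for Ckb and Rhob SAHA alone was the highest. Cdkn1a, which encodes the cell cycle inhibitor p21 and is a frequent target of HDAC inhibitors, was level at 3.35, 3.15, 3.95 and 3.58 FPKM.

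Immediate early and AP-1 genes took both directions, 10 higher and 6 lower of 31. Ifrd1, a transcriptional co-regulator, stood at 31.5 FPKM in the vehicle library, 17.4 under ATRA, 22.7 under SAHA and 239 under both. Like Ddit3, it was below vehicle with each compound and far above it with both. Egr1 had 4.92, 2.64, 34.1 and 42.1 FPKM and Junb 10.96, 22.02, 82.8 and 80.7 FPKM. Both were as high with SAHA alone, or nearly so, as with the combination. Fos had 0.149, 0.1997, 3.102 and 3.92 FPKM, so its vehicle level was too low for a fold to be read closely. Jun and Fosl1, partners of Fos in AP-1, were on the other side with 8.09, 4.66, 3.54 and 2.59 FPKM and 15.96, 8.74, 2.04 and 1.84 FPKM. The feedback genes of the MAP kinase pathway were 0 higher and 6 lower of 17, beside 11.1% and 12.6% of all rows. Spry2, an inhibitor of receptor signalling, had 5.96, 6.21, 0.553 and 0.448 FPKM, and the phosphatase gene Dusp4 had 20.9, 23.7, 5.55 and 6.31 FPKM. Receptor tyrosine kinases were 0 higher and 4 lower of 18, against the same shares, with Axl at 46.6 against 14.99 FPKM and Met, the hepatocyte growth factor receptor, at 7.21 against 2.33 FPKM. The filter left out 13 of 31 receptor genes, and their median of -0.56 was -0.19 over all members.

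TGF-beta and BMP pathway genes were 1 higher and 8 lower of 26, beside 11.1% and 12.6% of all rows, with a median of -0.61. The filter left out 15 of 41 members, and the median over all members was -0.43. The 1 higher member was at 2.22 on the log2 scale, and the genes named next are from the lower side. Ltbp1, which stores latent TGF-beta in the matrix, had 18.5, 13.6, 0.699 and 0.874 FPKM. The receptor gene Tgfbr2 had 4.37, 2.99, 1.0997 and 1.01 FPKM.

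Few genes of the G2/M, replication and clustered histone lists were past a mark. The list of cyclins, cyclin-dependent kinases and their inhibitors split, with 4 higher and 4 lower of 24 counted genes, beside 11.1% and 12.6% of all rows. Its median was -0.05 and its highest member was at 1.54. The G1 regulators named next lay on its lower side. Ccnd1, the cyclin that starts G1, stood at 36.95 FPKM in the vehicle library, 45.3 under ATRA, 0.674 under SAHA and 0.723 under both, low in both libraries with SAHA. Its kinase partners Cdk4 and Cdk6 had 34.9, 40.1, 11.3 and 14.7 FPKM and 5.59, 5.53, 0.746 and 0.517 FPKM. In the G2/M list 1 of 55 counted genes was higher (Ube2s, a ubiquitin-conjugating enzyme of mitotic exit, 1.06) and 1 lower (Anln, a cytokinesis scaffold, -1.31), with a median of -0.13 beside 0.08 for ATRA and -1.12 for SAHA. Mki67, the proliferation marker, stood at 27.2 FPKM in the vehicle library, 23.4 under ATRA, 3.39 under SAHA and 13.7 under both, so the SAHA library was the low one and the combination lay between. The element TTTGAA, the core of the cell cycle homology region, was in 18.1% of all promoter windows, in 12.2% of the counted genes and in 32 of 48 G2/M genes with a window.

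Replication genes were 4 higher and 2 lower of 45. Gins4, a subunit of the replicative helicase, had 3.24, 3.48, 8.62 and 12.97 FPKM, and the nucleotide enzymes Tk1 and Rrm2 had 8.28, 9.95, 0.532 and 1.17 FPKM and 4.47, 6.55, 0.953 and 1.14 FPKM. Replication-dependent histone genes had a median of 0.25 with the combination beside 0.26 for ATRA and -1.86 for SAHA, and 1 of 65 was past the mark upwards. That gene was Hist1h2ap, which was listed at 0 with vehicle and ATRA, 12.6 FPKM with SAHA and 93.1 with the combination. It overlaps the row of Hist1h2ao (922 and 841 FPKM with vehicle and combination), and such near-identical copies share reads, so no fold is given.

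Of the growth and survival regulators set for naming, Myc stood at 44.7 FPKM in the vehicle library, 26.5 under ATRA, 6.97 under SAHA and 13.1 under both, and Trp53, which encodes p53, at 12.5 FPKM in the vehicle library, 11.8 under ATRA, 1.46 under SAHA and 2.49 under both. For both, SAHA alone was the lowest library. Bcl2l1, which encodes the survival protein BCL-XL, had 21.4, 24.7, 2.53 and 3.06 FPKM, and Mcl1, another survival protein, had 14.7, 10.2, 10.8 and 6.78 FPKM. In the BCL2 family 1 of the 15 counted genes was past the mark upwards and 5 downwards, and the lower side held death-promoting members too: Bak1 and Bok had 3.33, 2.86, 1.27 and 0.946 FPKM and 4.04, 5.15, 0.463 and 0.568 FPKM. Bad, which opposes BCL-XL, was the 1 higher member with 1.45, 1.799, 2.99 and 4.11 FPKM. Cflar, the inhibitor of caspase-8, and Casp8 itself had 11.5, 8.65, 0.883 and 0.9199 FPKM and 7.01, 7.28, 0.684 and 0.785 FPKM. Diablo, which releases caspases from inhibition, had 2.497, 2.36, 7.96 and 9.19 FPKM. Targets of p53 were 1 higher and 3 lower of 22.

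S100 and annexin genes were among the most abundant genes on the lower side. S100a4, a calcium-binding protein tied to cell motility, stood at 557 FPKM in the vehicle library, 467 under ATRA, 138 under SAHA and 18.6 under both (chr3:90603770-90606045). The 4 libraries were in falling order, and the combination was 30.04 times lower than vehicle. S100a6, its neighbour in function, had 318, 259, 119 and 39.9 FPKM, and S100a11 had 104, 72.2, 68.7 and 19.4 FPKM. In S100a11 each compound alone was about level with the other and the combination was far below both. S100a10, a partner of annexin A2, had 199, 153, 35.2 and 47.4 FPKM and was lowest with SAHA alone. Anxa1, a phospholipid-binding protein, had 57.6, 43.9, 8.19 and 7.51 FPKM. In this list 7 of 9 counted genes lay past the lower mark and 0 past the upper one, against 12.6% and 11.1% of all rows, and the median was -2.05 beside -0.25 for ATRA and -0.59 for SAHA. The other 9 of 18 members were under the filter, and the median over all members was -0.42. In bulk RNA, fewer cells of a kind and less RNA per cell cannot be told apart, here or in the lists that follow.

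The mesenchymal marker list was 0 higher and 9 lower of 15 counted genes, beside 11.1% and 12.6% of all rows, with a median of -1.41 beside 0.12 for ATRA and -1.55 for SAHA. Of its 34 members 19 were under the filter, and the median over all members was -0.22. Its summed level went from 1400 FPKM with vehicle to 455 with the combination, largely through S100a4 and Vim, which belong to it. Prrx1, a mesenchymal homeobox factor, had 8.97, 9.02, 0.177 and 0.161 FPKM, and Sparc, a matrix glycoprotein, had 33.4, 23.8, 2.65 and 2.68 FPKM. Tpm1, an actin-binding tropomyosin, had 119.6, 218, 20.7 and 27.8 FPKM, with ATRA the highest library. Snai1, a repressor of epithelial genes, was level (0.08). The epithelial list did not take its place: 7 of 36 genes were counted and its sum went from 164 to 67.99 FPKM. Cldn6, an embryonic tight junction protein, had 43.8, 57.7, 7.39 and 2.57 FPKM, and the keratin gene Krt18 had 95.3, 116, 69.1 and 45.3 FPKM.

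Markers used for liver tumour stem-like cells were 0 higher and 13 lower of 18 counted genes, beside 11.1% and 12.6% of all rows, with a summed level of 260.1 FPKM with vehicle and 69.1 with the combination. Of 32 members 14 were under the filter, and the median of -1.48 was -0.05 over all members. Cd34, a sialomucin of progenitor cells, stood at 50.8 FPKM in the vehicle library, 49.4 under ATRA, 2.29 under SAHA and 4.12 under both, and Cd44, the hyaluronan receptor, at 61.8 FPKM in the vehicle library, 42.2 under ATRA, 31.5 under SAHA and 20.97 under both. For Cd34 the 2 libraries with SAHA were low, and for Cd44 every treated library was below vehicle and the combination lowest. Ly6a, which encodes the progenitor antigen Sca-1, had 28.2, 9.36, 0.819 and 0.352 FPKM. Stat3, which carries interleukin-6 signals, was the highest of the list at 0.81 on the log2 scale, short of the mark.

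Among collagens, laminins and integrins 1 of the 23 counted genes was past the mark upwards and 9 downwards, beside 11.1% and 12.6% of all rows, and among matrix proteases and matricellular genes 3 of 24 were higher and 10 lower. The filter left out 23 of 46 and 22 of 46 members, and the medians of -0.62 and -0.86 were -0.01 and -0.10 over all members. Mmp14, the membrane collagenase, had 15.2, 11.5, 0.178 and 0.353 FPKM, its inhibitor partner Timp2 28.7, 16.7, 4.18 and 2.03 FPKM and Col8a1 14.3, 9.57, 1.3003 and 0.653 FPKM. Itga3, a laminin receptor, had 23.97, 30.5, 25.98 and 8.25 FPKM, and Nid1, which links laminin to collagen IV, had 15.1, 17.4, 9.11 and 2.802 FPKM. Mmp14 was at its lowest with SAHA alone, while Timp2, Itga3, Nid1 and Col8a1 were lowest with the combination. Among the genes on the upper side were Cyr61, a YAP target, with 7.396, 7.06, 18.9 and 37.3 FPKM, and Plat, the tissue plasminogen activator, with 2.06, 0.891, 15.97 and 10.4 FPKM. Actin cytoskeleton genes were 5 higher and 12 lower of 51, with Cotl1, an F-actin binding protein, at 0.752 against 17.4 FPKM and Pfn1, profilin, at 115 against 30.4 FPKM.

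**Figure D3:**
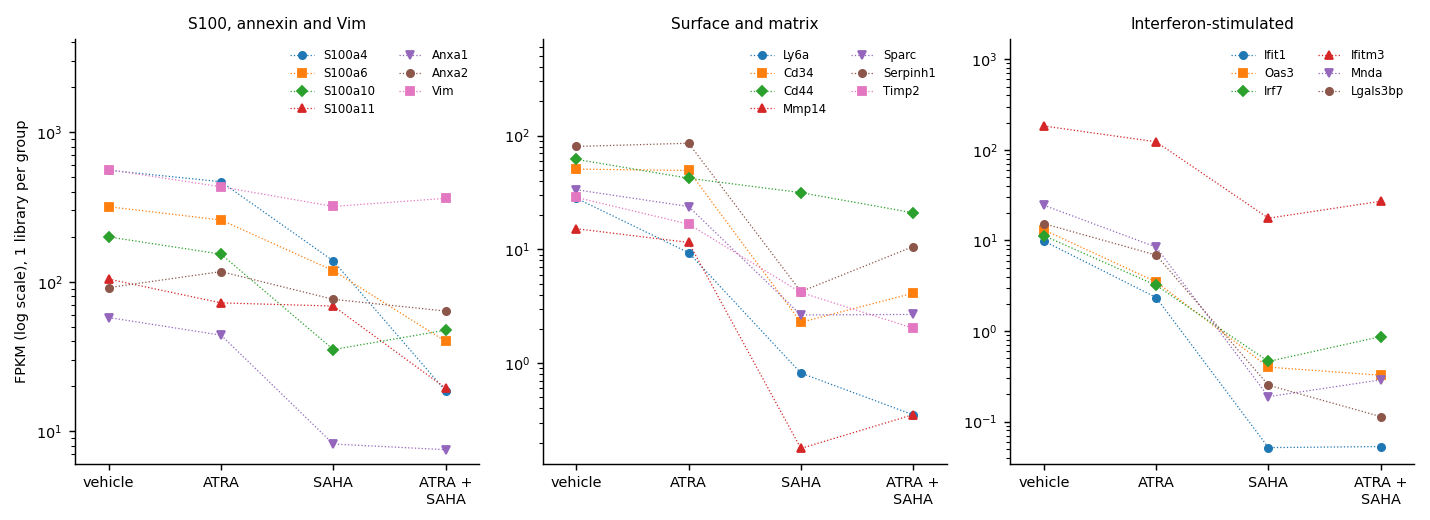
FPKM on a log scale (y axis) in the 4 libraries (x axis), 1 point per gene and library, with dotted lines only to guide the eye. S100a4 goes from 557 to 18.6 FPKM between vehicle and combination while Vim goes from 562 to 362, and most matrix and interferon-stimulated genes are near their lowest level in both libraries with SAHA. Irf7 and Ifitm3 were added after their values were seen.

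Nearly every counted interferon-stimulated gene was on the lower side: 34 of 35 were lower and 0 past the upper mark, against 12.6% of all rows. The median was -2.68, beside -1.18 for ATRA and -2.66 for SAHA. Of the 47 members of the list 12 were under the filter. Over all members the median was nearer to vehicle but stayed past the lower mark. A gene near 0 in both libraries with SAHA is counted only when its vehicle or ATRA level is high. The share lower among counted genes may therefore be raised by the filter, here and in the families named below. Ifit1, which binds viral RNA caps, stood at 9.85 FPKM in the vehicle library, 2.35 under ATRA, 0.0517 under SAHA and 0.05305 under both, and Oas3, which senses double-stranded RNA, at 13.1 FPKM in the vehicle library, 3.49 under ATRA, 0.3997 under SAHA and 0.325 under both. ATRA lay between vehicle and the libraries with SAHA, which were both near 0. Lgals3bp, a secreted galectin ligand, had 15.3, 6.91, 0.253 and 0.114 FPKM. Bst2, the virus tether, was the 1 gene between the marks with 27.6, 16.1, 7.65 and 15.4 FPKM. The neighbouring p200 family of DNA sensors on chromosome 1 was lower in 6 of 7 members, among them Mnda (24.5 against 0.289 FPKM) and Ifi204 (19.8 against 0.167 FPKM), and the Ly6 family on chromosome 15 in 6 of 6, among them Ly6c1 (27.2 against 0.398 FPKM). Under the filter were 3 of 10 p200 members and 4 of 10 Ly6 members. Members of these 2 families are close copies of each other, so reads may be shared between rows and their counts are not independent.

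The spaced repeat of GAAA, 2 copies 2 bases apart, is the centre of the interferon response element. It was found in 3.49% of 27025 windows, in 2.93% of the counted genes and in 13 of the 30 interferon-stimulated genes with a window. Of the 198 counted genes with it, 16 (8.08%) were higher and 57 (28.8%) lower, beside 11.1% and 12.6% of all counted rows. Their median was -0.16 on the log2 scale, and that of the genes without it was 0.05. The 198 include those 13 interferon-stimulated genes and close copies such as Mnda and Mndal. The count therefore partly repeats that of the lists above. Windows of Oas3, Ifit1 and Isg15 are shown with the repeat in capitals, on the opposite strand in Ifit1. In Isg15 more copies of GAAA follow at the same spacing in small letters, so the capitals mark only the first of several overlapping repeats. Isg15, a ubiquitin-like modifier, was chosen after its value was seen, and stood at 4.97, 1.16, 0.301 and 0.242 FPKM.
Oas3: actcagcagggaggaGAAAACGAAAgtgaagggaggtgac
Ifit1: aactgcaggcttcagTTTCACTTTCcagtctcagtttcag
Isg15: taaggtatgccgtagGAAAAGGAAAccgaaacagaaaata

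The coordinates are chr5:120777710-120777749 (minus strand) for Oas3, chr19:34640770-34640809 (plus strand) for Ifit1 and chr4:156200872-156200911 (minus strand) for Isg15. In class I antigen presentation 7 of the 16 counted genes were past the mark upwards and 3 downwards, beside 11.1% and 12.6% of all rows. The median was 0.57, and it turned to -0.12 over all members without the filter. The highest member was Calr (1.41), which is also counted among the ER chaperones above. H2-D1, a classical class I heavy chain, had 86.96, 78.5, 175 and 190.1 FPKM, and H2-Q4, H2-Q6 and H2-Q7, close copies that share reads, were 1.16, 1.12 and 1.10 on the log2 scale. B2m, the light chain that every class I protein needs, was -0.85, and Tap1, the peptide pump, -1.01. NF-kB and chemokine genes were 0 higher and 7 lower of 18, with Ptgs2, the inducible cyclooxygenase, at 20.3 against 2.32 FPKM and Ccl2, a monocyte chemokine, at 7.81 against 1.52 FPKM. The filter left out 24 of 42 members of that list, and its median of -0.29 was -0.02 over all members.

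Mitochondrial genes leaned upwards and glycolytic genes downwards. Of 75 mitochondrial ribosomal protein genes 17 stood higher and 0 lower, with a median of 0.44, and of 59 respiratory chain genes 9 and 0, with a median of 0.39. Of all rows with 5 to 20 FPKM, 17.4% were higher and the median was 0.10, and with 20 to 100 FPKM the median was 0.22. Genes with transcripts under 1000 bases had a median of 0.29, and the part of level and length in these lists was not tested. Mrpl28, a protein of the large subunit, had 7.54, 9.18, 29.2 and 40.4 FPKM, and Ndufv1, the NADH-binding subunit of complex I, had 8.18, 9.86, 28.5 and 31.5 FPKM. In the citric acid cycle and its feeder enzymes 5 of the 24 counted genes were past the mark upwards and 3 downwards. Pcx, pyruvate carboxylase, had 0.372, 0.385, 6.04 and 7.33 FPKM, and Pck2, the mitochondrial phosphoenolpyruvate carboxykinase and an ATF4 target, had 16.03, 18.5, 1.04 and 1.81 FPKM. Glycolysis and hypoxia genes were 0 higher and 8 lower of 33, with Ldha, lactate dehydrogenase A, at 142, 152, 63.9 and 49.7 FPKM and the lactate exporter gene Slc16a3 at 10.5, 13.8, 3.85 and 1.72 FPKM. Cholesterol and fatty acid genes were 4 higher and 10 lower of 41. Idi1, an isomerase of sterol synthesis, had 15.4, 14.2, 5.48 and 3.16 FPKM, Fasn, fatty acid synthase, 8.37, 9.72, 3.76 and 2.27 FPKM, and Acsl1, which activates fatty acids, 0.623, 0.703, 4.12 and 5.01 FPKM.

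Cytosolic ribosomal protein genes were shifted a little and together: 75 of 80 lay above 0, with a median of 0.36 beside 0.21 for ATRA and -0.12 for SAHA, and 1 was past the mark (Rplp2, a stalk protein, 1.14). This median was near that of all 216 rows at 100 FPKM or more (0.32), a group at the level of these genes. The list had a median level of 166 FPKM with vehicle, so many of its genes are themselves among those rows. The 2 medians are therefore not independent, and their likeness is partly built in. Genes with transcripts under 1000 bases had a median of 0.29, and the part of level and length was not tested. Ribosome assembly genes did not share that shift, with 4 higher and 6 lower of 49. Nop56, a core protein of the box C/D particle, had 29.5, 16.6, 3.48 and 5.88 FPKM, and Ubtf, which opens ribosomal DNA for transcription, had 5.57, 5.23, 0.738 and 0.667 FPKM. Splicing genes were 4 higher and 12 lower of 57. The lower side held SR proteins and hnRNPs, such as Srsf2 (27.1, 18.6, 10.9 and 3.34 FPKM), Srsf1 (13.3, 8.61, 5.81 and 1.54 FPKM) and Hnrnpa2b1 (14.7, 9.67, 2.25 and 2.104 FPKM), and the upper side snRNP parts, such as Snrpd2 (71.98, 85.8, 194 and 234 FPKM) and Snupn, the snRNP import adaptor (1.297, 0.892, 10.2 and 16.3 FPKM). Srsf1 and Srsf2 were lowest with the combination, below either compound alone.

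**Figure D4:**
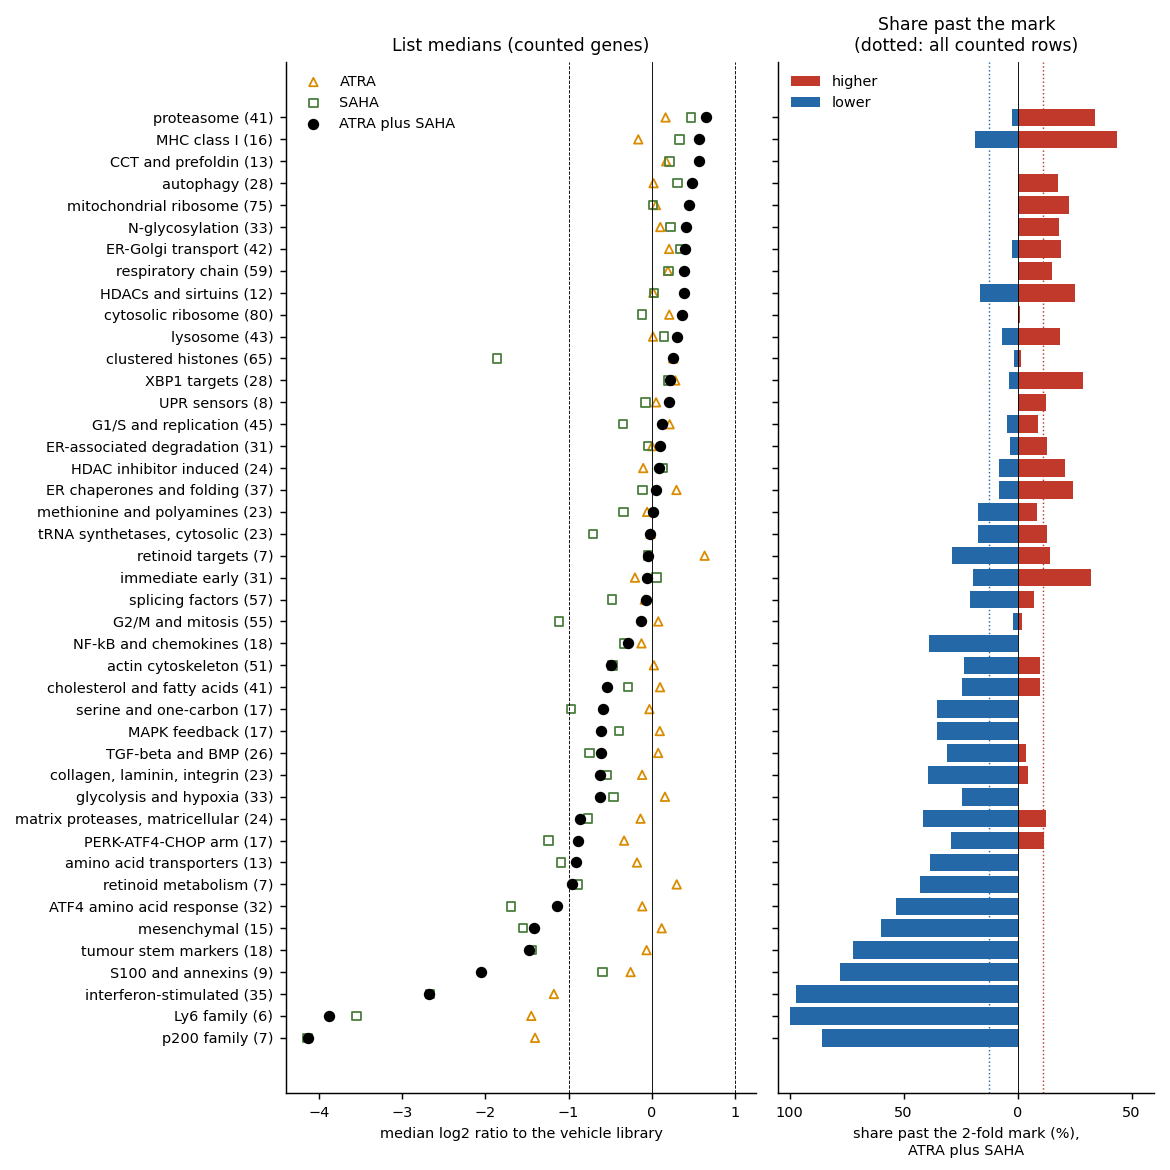
Left: median log2 ratio to vehicle (x axis) of the counted genes of each list (rows, number of counted genes in brackets) for ATRA, SAHA and the combination, which share the vehicle library. Right: share of each list's counted genes past the 2-fold mark with the combination, higher to the right and lower to the left, with dotted lines at 11.1% and 12.6% for all counted rows. The proteasome (0.66) is at the top and the p200 family (-4.13) at the bottom, and histone and G2/M medians are low with SAHA alone only.

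Across all genes, the direction differed with promoter CpG content, which had not been used to choose any gene. A RefSeq window was matched for 6755 of 8226 counted protein-coding genes (82.1%). Where the window held 0 to 4 CpG dinucleotides, 34.99% of 343 genes were lower and 5.83% higher. With 5 to 9 CpGs 29.2% of 469 genes were lower and 5.12% higher. With 20 to 24 CpGs 5.96% of 1276 genes were lower and 12.5% higher, and with 35 or more 13.8% of 961 genes were lower and 8.01% higher. For SAHA alone the shares in the poorest bin were 37.0% lower and 4.08% higher, and for ATRA alone 8.45% and 2.04%. Transcript length went with the direction too: 15.2% of genes with transcripts under 1000 bases were higher and 10.1% lower, while of those with 5000 bases or more 4.71% were higher and 14.5% lower. Interferon-stimulated, Ly6 and p200 genes are among the genes counted in these bins, and their part in the pattern was not tested.

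**Figure D5:**
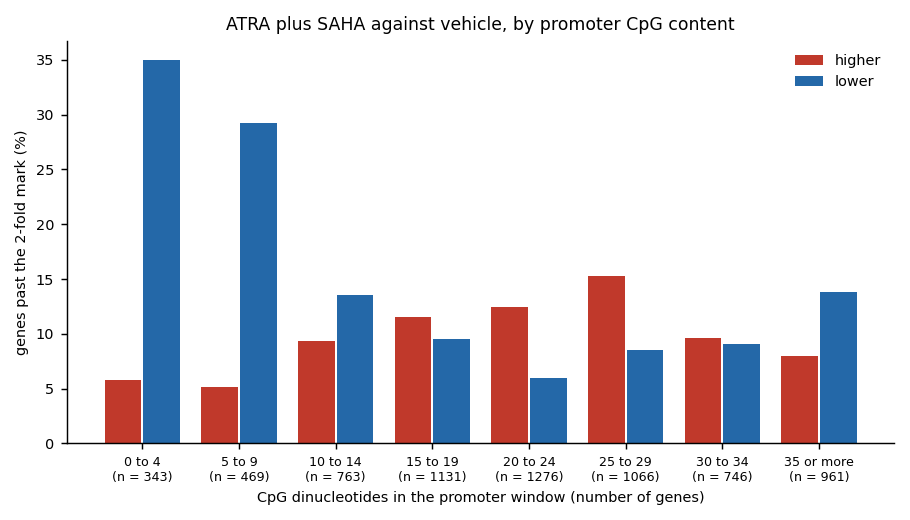
Share of counted protein-coding genes past the 2-fold mark (y axis, from 0) by the number of CpG dinucleotides in the 300-base promoter window (x axis, number of genes in brackets), with the combination against vehicle. The share lower goes from 34.99% in the bin of 0 to 4 CpGs to 5.96% in that of 20 to 24, and the share higher is largest, 15.3%, at 25 to 29.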

How the data were processed

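The authors' deposited values are FPKM, 1 column per library, per the file headers. Per the submitters' processing notes, the tools were Trimmomatic 0.32 and Cuffdiff, on mm10. Which aligner, Cuffdiff version, annotation, strand setting and library scaling were used is not stated in the sources at hand. In 27 rows a symbol turned into a date was resolved from its description. From there log2(FPKM + 1) ratios to vehicle were computed over rows with a mean of at least 1 FPKM, with a mark at 2-fold. As each group is 1 library, nothing was tested, and FPKM carries no counting interval. Depth was estimated from the lowest step of FPKM times transcript length (GENCODE M21), taken as 1 fragment. Starts were written counting from 1. In all, 1622 counted rows overlap another row.

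The members and the 85 gene lists were chosen with earlier results of these data known. Named genes are the 15 highest and 15 lowest that reach 5 FPKM in either library (predicted genes, pseudogenes and small RNAs set aside), up to 5 highest and 5 lowest counted members of a list, and set stress, retinoid, HDAC and growth genes. Promoter windows are RefSeq's, on GRCm38.p6. For the 7 counted retinoid targets only 57.1% had a window, so motif counts there are void. Alternatives were a pseudocount of 0.1 FPKM, other filters and other scalings. The scripts, in Python 3.11.15 with pandas 2.3.3 and numpy 2.4.6, were tested on simulated data. Some results on single genes are not reported here.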

Additional observations from a re-analysis of the deposited data

How the results depend on the processing

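No paired analysis was possible because each group had 1 library, and for the same reason no replicate could be left out. Under the alternatives the count of genes past the mark moved most with the filter and the pseudocount. With a mean of at least 5 FPKM, 502 of 2958 counted rows were higher and 409 lower. With a pseudocount of 0.1 FPKM, 1484 were higher and 1554 lower. Centring on the median, equal totals without small RNAs, no filter, a filter on the 2 libraries compared, and leaving out small RNAs and predicted genes kept the counts between 841 and 990 higher and between 987 and 1199 lower. The higher share of the genes past the mark was 46.7% as reported, 42.1% at the lowest and 55.1% at the highest. The median of the MHC class I list turned from 0.57 to -0.12 with no filter, since that brings in members near 0. It was the 1 list median of 0.5 or more in size that changed sign, and 57 other values of list medians under a setting moved by 0.25 or more. Without the filter the liver tumour stem list was -0.05 in place of -1.48, the mesenchymal list -0.22 in place of -1.41, S100 and annexins -0.42 in place of -2.05 and matrix proteases -0.10 in place of -0.86. The medians of the p200, Ly6 and interferon-stimulated lists also moved towards 0 by more than 0.25 without the filter. All of them stayed past the lower mark, and the Ly6 median was then below that of the p200 family. Single genes were followed only for the highest, the lowest and the set genes, 53 of them with a value. Of these 53, 3 crossed the mark under 1 setting each. Eif2ak3 reached 1.04 with a pseudocount of 0.1 FPKM. With equal totals without small RNAs Hdac3 was 0.98 and Mki67 -1.01. Genes named only as members of a list were not followed, so those near the mark may cross it. Low values limit the rest: 66 counted rows were listed at 0 with vehicle and 54 with the combination.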

Other observations

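Few genes of the X chromosome were past the upper mark. Of 224 counted protein-coding genes on it, 1.79% were higher and 15.2% lower with the combination, with a median of -0.25 on the log2 scale, against 10.7% and 12.5% of 8226 such genes in all. Among the autosomes the share lower was larger on chromosomes 1 (17.6%), 3 (16.8%) and 6 (16.5%). On chromosome 17, 17.2% of 453 genes were higher and 7.73% lower, with a median of 0.20. For SAHA alone the X chromosome shares were 3.57% and 14.7%, and for ATRA alone 0.446% each.

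The growth medium held dexamethasone, and genes of the glucocorticoid response leaned downwards, with 4 of 12 counted genes lower, 0 higher and a median of -0.69. The filter left out 7 of 19 members, and the median over all members was -0.37. Nr3c1, the glucocorticoid receptor, had 3.66, 2.15, 1.09 and 1.09 FPKM in the order vehicle, ATRA, SAHA, combination. Its targets Tsc22d3 (GILZ) and Sgk1, a kinase of ion transport, had 18.6, 6.71, 2.53 and 6.19 FPKM and 8.202, 6.14, 3.12 and 1.85 FPKM. The metallothionein gene Mt1 had 86.3, 138, 353 and 76.4 FPKM, so it was highest with SAHA alone and near vehicle with the combination.

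The Prl2c genes, prolactin-family growth factors also called proliferins, went opposite ways with the 2 compounds. Prl2c2 had 6.46, 54.3, 0.103 and 0.5204 FPKM in the same order. The list's median was -2.30 with the combination beside 2.91 for ATRA and -2.66 for SAHA. Its 5 members are close copies, so reads may be shared between them. A similar order was seen in Aldh3a1, an aldehyde dehydrogenase of the xenobiotic response, with 2.42, 29.7, 1.55 and 2.62 FPKM, and in Igfbp4, which binds insulin-like growth factors, with 56.1, 118, 1.76 and 9.34 FPKM: high with ATRA alone and near or below vehicle with the combination.

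Among 148 counted small RNA rows 45 were higher and 27 lower, with a median of 0. Many small RNA rows are listed at 0 in 1 of the libraries, so no fold is given for them.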
